A study of Mus musculus with 96 samples.

Results

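The Hox cluster genes were examined in mouse embryonic stem cells (ESCs): 38 genes, chosen by symbol from the HoxA, HoxB, HoxC and HoxD clusters, out of 37620 genes in each count table. The study asks how RYBP, a subunit of Polycomb repressive complex 1 (PRC1), acts with Trithorax components such as WDR5. RNA-seq was given as 7 count tables, each with 2 control and 2 treated or mutant libraries, and ChIP-seq as 14 peak lists. Every gene was compared only within its own table.

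The groups were as follows. In the Rybp knockout table, Rybp-floxed R7.15 ESCs without deletion (Rybp+/+) were compared with Rybp-/- ESCs, made with 5 µM 4-hydroxytamoxifen (4-OHT) for 4 days, so exposure to 4-OHT and loss of RYBP cannot be told apart there. In the knockdown tables, R1 ESCs with shRybp or shWdr5 were each compared with R1 ESCs with an empty vector (shEV). Both tables held the same shEV libraries, so the knockdown comparisons share their controls. The shEV libraries held 0.509 and 0.506 times as many counts in the Wdr5 table as in the Rybp table, and the cause was not tested. TF-AA mutation ESCs were compared with WT ESCs, both of the R1 line, and what TF-AA stands for is not given in the sources used here. RYBP phase disruption ESCs (R7.15, RYBPfl/fl Rosa26::CreERT2 with RYBP.21aa deletion) were compared with WT.RYBP ESCs, which carry the same floxed alleles and overexpress WT RYBP, and both groups received 4-OHT. In the RYBP induction table, J1 ESCs with Tet on.RYBP were given doxycycline (DOX) or vehicle. In the RYBP and STAT3 induction table, rTRS ESCs with DOX-induced Rybp_Stat3 integration were given DOX or left as controls (NTC). No source says whether the replicate RNA-seq libraries came from separate cultures, so p-values measure the spread between these libraries, which may be technical. The ChIP-seq lists came from Rybp+/+ and Rybp-/- R7.15 ESCs (H3K4me3, WDR5, H3K27ac and STAT3), from R1 ESCs with DOX-induced Rybp_Stat3 integration without or with DOX (Tet.Rybp.Stat3, DOX- and DOX+; RING1B and STAT3), and from R1 ESCs with shEV or shStat3, a knockdown of Stat3 (RING1B). The methods call the merged ChIP-seq replicates biological, but a merged list shows no spread between them.

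Hox genes encode homeodomain transcription factors that give cells a position along the head-to-tail axis and the limb axis. Within a cluster they lie in the order of their paralog numbers: anterior genes (groups 1 to 3) act towards the hindbrain, central genes (4 to 8) in the trunk, and posterior genes (9 to 13) in the lumbosacral region, tail, limb and genital buds. In ESCs they are textbook Polycomb targets, held at very low expression under RING1B, the catalytic subunit of PRC1 that ubiquitinates histone H2A, while their promoters also carry H3K4me3, a mark written by Trithorax-type complexes in which WDR5 is a scaffold. H3K27ac marks active promoters and enhancers.

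In NCBIM37 (mm9) coordinates, the HoxA members spanned 98.5 kb at chr6:52112350-52210874, the HoxB members 173.9 kb at chr11:96055630-96229570, the HoxC members 115.7 kb at chr15:102751534-102867274 and the HoxD members 96.8 kb at chr2:74506367-74603200. The RefSeq promoter table (GRCm38.p6) held 24 promoters of 22 members, and the 250 bases before each start were found once in NCBIM37. They held a median of 12.5 CG dinucleotides (range 2 to 35), against a median of 6 over all 32851 RefSeq promoters of that length. Of letters searched on both strands, TATAAA was in 16.7% of the member promoters and 12.4% of all, TTCNNNGAA (the core of a STAT site) in 4.17% and 7.02%, and GAGAG in 58.3% and 54.7%. A pair of promoters is shown, 5′ to 3′ on the gene's strand with CG in capitals, for a member called in 3 comparisons (Hoxa10, minus strand, chr6:52190854-52191103) and a member with no call (Hoxd8, plus strand, chr2:74542422-74542671). They held 7 and 6 CG, and GAGAG was found in the first alone.
Hoxa10 promoter: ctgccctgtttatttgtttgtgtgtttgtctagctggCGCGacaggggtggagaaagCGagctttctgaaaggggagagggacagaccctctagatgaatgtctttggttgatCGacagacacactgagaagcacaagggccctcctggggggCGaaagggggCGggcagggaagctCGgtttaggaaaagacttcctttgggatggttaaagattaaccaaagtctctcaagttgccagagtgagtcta
Hoxd8 promoter: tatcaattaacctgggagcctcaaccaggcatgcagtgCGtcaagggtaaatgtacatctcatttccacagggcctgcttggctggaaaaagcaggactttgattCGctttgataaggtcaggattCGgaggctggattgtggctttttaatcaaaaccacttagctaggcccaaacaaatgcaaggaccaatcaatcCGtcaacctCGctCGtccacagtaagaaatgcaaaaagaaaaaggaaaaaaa

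Libraries held 14512857 to 81049618 counts on genes. The targeted gene was checked first. Rybp counts fell from 8680 and 8867 to 1889 and 1923 in Rybp-/- ESCs and from 3389 and 3178 to 1974 and 1640 in shRybp ESCs. Wdr5 counts fell from 7481 and 6774 to 1285 and 1212 in shWdr5 ESCs. Rybp counts rose from 4876 and 5015 to 16300 and 18639 in the RYBP induction table. With phase disruption Rybp was at 11908 and 12078 counts in WT.RYBP and 9743 and 9314 in mutant ESCs, and Rybp, Wdr5 and Stat3 fell by 0.22 to 0.27 on the log2 scale. With the TF-AA mutation, whose target is not given, Rybp, Wdr5 and Stat3 had no call. In the rTRS table Rybp was at 5795 and 5936 in the NTC libraries and at 5285 and 5081 in the libraries labelled DOX, so a rise of Rybp was not seen there, and Stat3 rose by 0.20 on the log2 scale. The libraries of that table are therefore named by their labels throughout. In bulk RNA, fewer cells of a type and less RNA per cell cannot be told apart.

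Hox transcripts were scarce in every control group. Per gene length, the median over the 38 members ranged from 0.0105 to 0.183 RPKM across the control groups of the 7 tables, and 0 to 4 members reached 1 RPKM. RPKM are counts scaled to the library's normalised total and the gene's length. Hoxc13, which acts in hair and nail formation, had the highest control level of all members in each table, from 0.878 RPKM in WT ESCs to 3.72 RPKM in shEV ESCs. Hoxd13, which patterns digits and the genital bud, came next in 4 tables, and Hoxb9, which patterns the thorax, was among the highest 3 in 6 of the 7. In the WT.RYBP libraries Hoxa5, which acts in the cervical and upper thoracic region, was second at 2.05 RPKM. Summed over all members, the level rose from 8.11 and 7.78 to 11.8 and 12.1 CPM (counts scaled to the library's normalised total) in the Rybp knockout. In the Rybp knockdown it rose from 28.3 and 27.1 to 41.3 and 42.5 CPM. It rose from 27.8 and 27.2 to 62.1 and 65.2 CPM in the Wdr5 knockdown, from 6.50 and 8.10 to 22.9 and 21.1 CPM with the TF-AA mutation, and from 30.6 and 35.8 to 59.7 and 54.3 CPM with RYBP phase disruption. With RYBP induction the sum was 11.3 and 13.6 CPM against 11.7 and 12.5 CPM, and in the rTRS table it was 17.2 and 16.2 CPM in NTC libraries and 13.0 and 13.9 CPM in libraries labelled DOX. These sums, for which no test was run, did not overlap between groups in any table but that of RYBP induction. Hoxb9 and Hoxc13 were also summed apart, picked from these data as the 2 members called in the most comparisons. In the Wdr5 knockdown the rise of the sum lay in this pair, which went from 11.5 and 11.5 to 47.4 and 48.4 CPM. The other 36 members summed to 16.4 and 15.7 CPM in shEV and 14.7 and 16.8 CPM in shWdr5 ESCs, which overlapped, and the HoxD sum was lower, at 4.72 and 4.94 against 7.90 and 7.34 CPM. In the Rybp knockout the same pair was at 3.97 and 3.85 against 3.93 and 3.46 CPM, and the other 36 members went from 4.14 and 3.93 to 7.86 and 8.60 CPM. In the Rybp knockdown most of the summed rise was also in Hoxb9 and Hoxc13, from 12.0 and 11.9 to 22.5 and 22.4 CPM, while the other 36 members were at 16.3 and 15.1 against 18.7 and 20.2 CPM. In the rTRS table the lower sum lay in this pair, at 11.5 and 10.4 against 6.22 and 7.31 CPM, and the other 36 members were higher, at 5.68 and 5.86 against 6.82 and 6.64 CPM. With the TF-AA mutation the pair went from 3.06 and 3.36 to 6.66 and 5.66 CPM and the others from 3.44 and 4.74 to 16.2 and 15.5 CPM. With phase disruption the pair overlapped between groups, and the others went from 23.5 and 25.3 to 50.6 and 44.4 CPM.

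**Figure D1:**
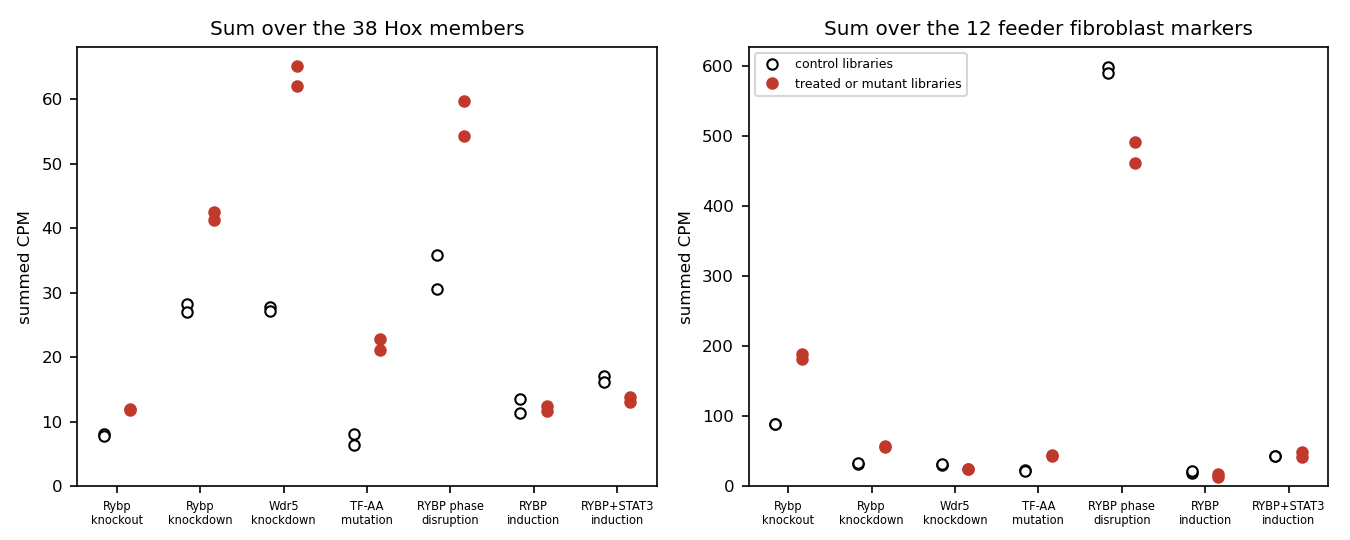
Summed CPM (y axis, linear) of the 38 Hox members (left) and of 12 feeder fibroblast marker genes (right) in every library of the 7 comparisons (x axis), with open points for control and red points for treated or mutant libraries. The Hox sum is above both controls in 5 comparisons, and the fibroblast sum is highest in the WT.RYBP libraries, near 598 and 590 CPM.

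Most calls on the members were rises. A call is an edgeR quasi-likelihood adjusted p under 0.05 over all genes tested in a table. Across the 7 comparisons there were 37 calls, 33 higher and 4 lower, on 20 members, 19 of which were higher at least once and 3 lower at least once. In the Rybp knockout 8 of the 16 members tested were higher and 0 lower, beside 22.8% of all genes higher and 22.7% lower. In the Rybp knockdown 5 of 20 were higher and 0 lower (26.8% and 26% of all genes). In the Wdr5 knockdown 5 of 13 were higher and 2 lower (31.5% and 31.5% of all genes, 63% in all). With the TF-AA mutation 6 of 8 were higher and 0 lower (14.4% and 16.1%), and with RYBP phase disruption 8 of 21 were higher and 1 lower (16.1% and 17%). In the RYBP induction 0 of 8 were called (6.02% of all genes, 3.63% higher and 2.39% lower), and among rTRS libraries 1 of 12 was higher and 1 lower (23% and 20.4%). The share of higher calls was thus close to or below that of all genes in the Rybp knockdown and the rTRS table, and above it in the Rybp knockout, the TF-AA mutation and the phase disruption, with the Wdr5 knockdown between. The median log2 fold change of the members tested was 1.12 in the Rybp knockout, 0.51 in the Rybp knockdown, and 0.31 in the Wdr5 knockdown. It was 2.13 with the TF-AA mutation, 1.00 with phase disruption, −0.17 with RYBP induction and −0.31 in the rTRS table, and the median of all genes tested lay between −0.0074 and 0.018. Only members with enough counts in a table were tested, and a low member enters a table mainly through the group where it is high, so these counts and medians describe the members tested and not all 38.

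**Figure D2:**
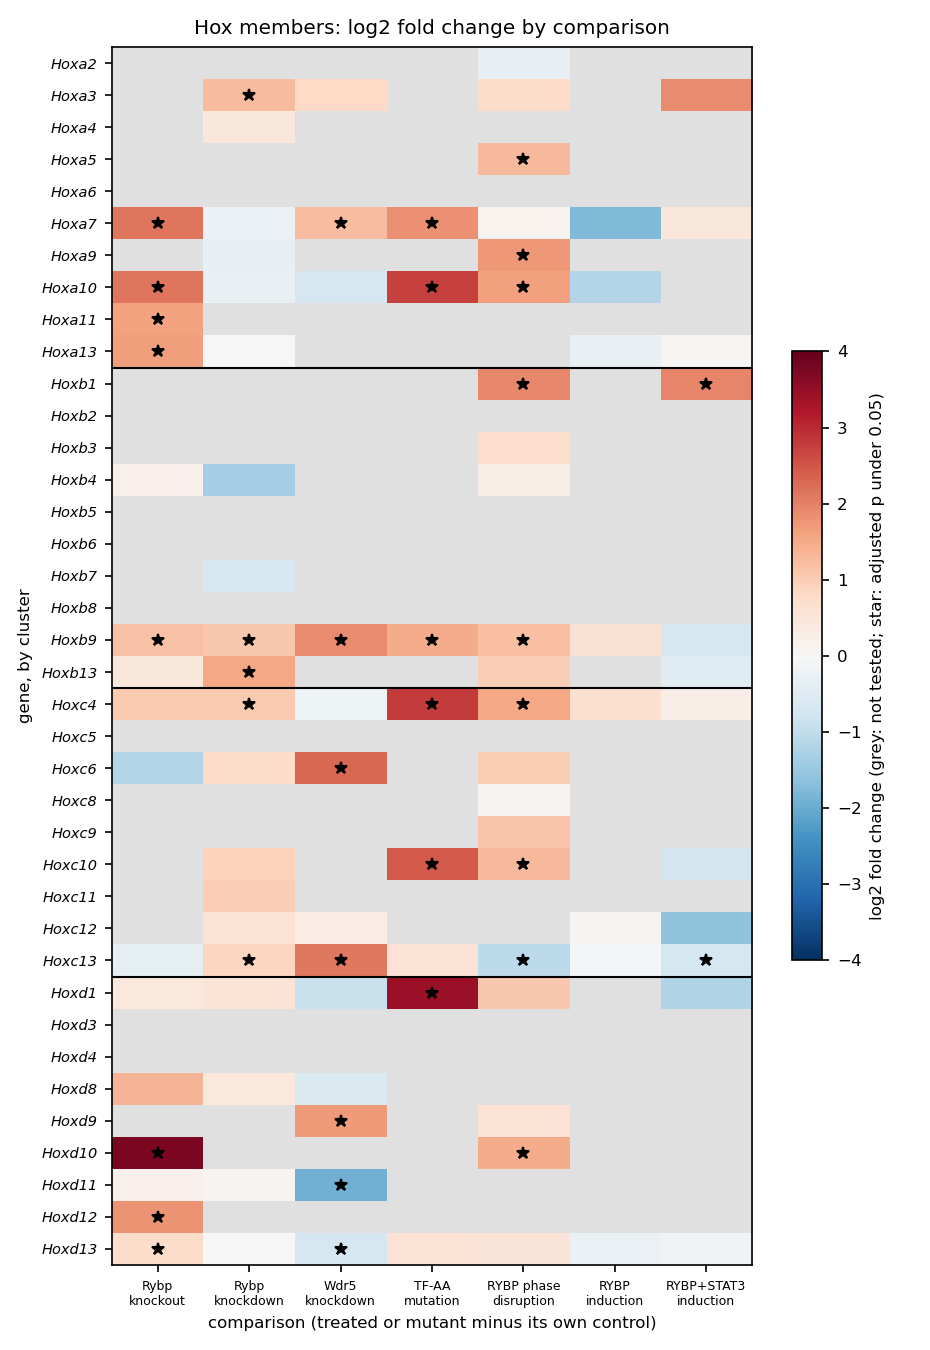
log2 fold change (colour) of each of the 38 members (rows, by cluster) in each of the 7 comparisons (columns), with grey for a member not tested and a star for an adjusted p under 0.05. Red prevails in the Rybp knockout, TF-AA mutation and phase disruption columns, and Hoxb9 has a star in 5 columns.

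By cluster, the Rybp knockout called all 4 HoxA members tested, 1 of 3 in HoxB, 0 of 3 in HoxC and 3 of 6 in HoxD, whereas the Rybp knockdown called 1 of 6 in HoxA, 2 of 4 in HoxB, 2 of 6 in HoxC and 0 of 4 in HoxD, all higher. The difference between clusters was not tested. In the Wdr5 knockdown the HoxC members gave 2 rises of 4, and the HoxD members 1 rise and 2 falls of 5. By position, posterior members gave 7 of the 8 calls in the Rybp knockout (7 of 10 tested, against 1 of 5 central and 0 of 1 anterior), 3 of 5 in the Rybp knockdown, 5 of 7 in the Wdr5 knockdown, 3 of 6 with the TF-AA mutation and 6 of 9 with phase disruption. Posterior members were 16 of the 38, of which 5 to 11 were tested in these tables.

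Hoxb9 was the member called in the most comparisons. Its counts were 29 and 39 in Rybp+/+ and 90 and 59 in Rybp-/- ESCs (log2 fold change 1.19 ± 0.39, SE, edgeR adjusted p = 0.012). They were 126 and 91 in shEV and 321 and 275 in shRybp ESCs, or 3.19 and 2.47 against 5.82 and 6.13 CPM (1.07 ± 0.19, edgeR adjusted p = 9.1e-05). In the Wdr5 table they were 67 and 47 in shEV and 231 and 201 in shWdr5 ESCs (1.88 ± 0.17, edgeR adjusted p = 1.4e-09). Groups did not overlap in any of these, and the highest level was that of shWdr5 ESCs, 10.8 and 9.65 CPM. With the TF-AA mutation Hoxb9 went from 19 and 24 to 66 and 48 counts (1.48 ± 0.33, edgeR adjusted p = 0.0014), and with phase disruption from 39 and 53 to 88 and 109 (1.21 ± 0.23, edgeR adjusted p = 0.00011). It did not pass in the tables with induction, where vehicle and DOX libraries overlapped at 26 and 11 against 13 and 41 counts, and where the libraries labelled DOX of rTRS ESCs were below NTC, 76 and 96 against 154 and 127 counts (−0.68 ± 0.28, edgeR adjusted p = 0.066). The knockout call was lost without Rybp+/+ replicate 1 (edgeR adjusted p = 0.065) and without Rybp-/- replicate 1 (edgeR adjusted p = 0.24), and the rTRS fall passed without NTC replicate 2 or without DOX replicate 2.

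Hoxc13 rose in the knockdowns and fell in 2 other comparisons. Its counts were 350 and 348 in shEV and 922 and 728 in shRybp ESCs, or 8.85 and 9.46 against 16.7 and 16.2 CPM (0.85 ± 0.11, edgeR adjusted p = 2.3e-06). In the Wdr5 table they were 178 and 180 against 783 and 808, a 4.33-fold rise (2.11 ± 0.095, edgeR adjusted p = 6.1e-15), which was the smallest adjusted p of any member. Since both tables share the shEV libraries, these rises are not independent of each other. With phase disruption Hoxc13 fell from 74 and 116 to 46 and 39 counts (−1.05 ± 0.25, edgeR adjusted p = 0.0012). The call on Hoxc13 was lost without WT.RYBP replicate 2 (edgeR adjusted p = 0.095). In the rTRS table it fell from 434 and 430 to 247 and 276 counts (−0.70 ± 0.16, edgeR adjusted p = 0.0029). In the Rybp knockout it was at 283 and 271 against 209 and 207 counts, with groups apart and no call (−0.36 ± 0.17, edgeR adjusted p = 0.076), with the TF-AA mutation at 45 and 44 against 68 and 58 (edgeR adjusted p = 0.11), and with RYBP induction at 191 and 195 against 156 and 193 (edgeR adjusted p = 0.93).

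**Figure D3:**
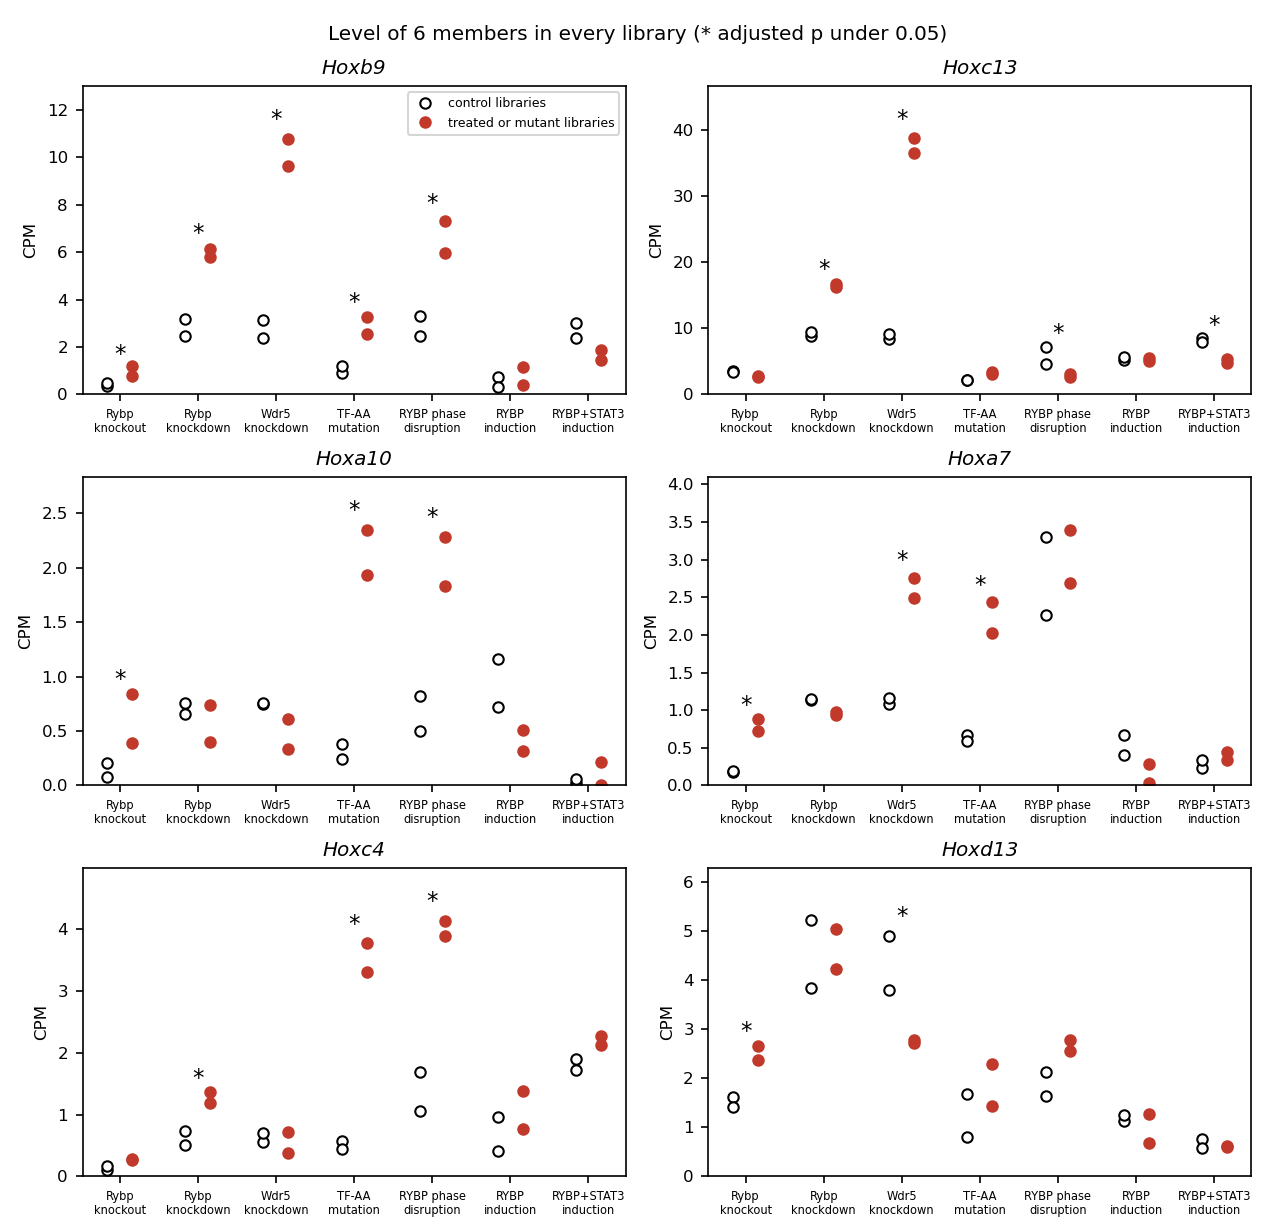
Level in CPM (y axis, linear, its own scale for each gene) of Hoxb9, Hoxc13, Hoxa10, Hoxa7, Hoxc4 and Hoxd13 in every library of the 7 comparisons (x axis), with open points for control and red points for treated or mutant libraries and an asterisk for an adjusted p under 0.05. Hoxc13 in shWdr5 ESCs, at 36.6 and 38.8 CPM, is the highest level of any of the 6 members.

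Among the other posterior HoxA genes, Hoxa10, which patterns the lumbar region and the uterus, rose in 3 comparisons. It went from 16 and 6 to 30 and 65 counts in Rybp-/- ESCs (2.15 ± 0.60, edgeR adjusted p = 0.0036), from 8 and 5 to 39 and 44 with the TF-AA mutation (2.74 ± 0.47, edgeR adjusted p = 8e-05) and from 13 and 8 to 27 and 34 with phase disruption (1.63 ± 0.44, edgeR adjusted p = 0.0039). It did not pass in either knockdown, at 26 and 28 against 41 and 18 counts in the Rybp table and 16 and 15 against 13 and 7 in the Wdr5 table. The knockout call was lost without Rybp-/- replicate 2 (edgeR adjusted p = 0.19), and the phase disruption call without WT.RYBP replicate 2 (edgeR adjusted p = 0.075) or phase disruption replicate 2 (edgeR adjusted p = 0.068). Hoxa9, known from blood progenitors and leukaemia, rose with phase disruption from 4 and 15 to 31 and 28 counts (1.73 ± 0.47, edgeR adjusted p = 0.0047). The call on Hoxa9 was lost without WT.RYBP replicate 1 (edgeR adjusted p = 0.15) or phase disruption replicate 1 (edgeR adjusted p = 0.054). Hoxa11 and Hoxa13, both limb and reproductive tract genes, rose in the knockout only just past the threshold, from 7 and 12 to 26 and 30 counts (edgeR adjusted p = 0.041) and from 3 and 16 to 39 and 19 (edgeR adjusted p = 0.048). The call on Hoxa11 was lost on leaving out any of the 4 libraries (edgeR adjusted p from 0.07 to 0.23), and that on Hoxa13 without Rybp+/+ replicate 1 (edgeR adjusted p = 0.37) or Rybp-/- replicate 1 (edgeR adjusted p = 0.49).

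The posterior HoxD genes, which act in limb and genital development, moved in both directions. Hoxd10 rose in Rybp-/- ESCs from 3 and 0 to 20 and 22 counts (3.75 ± 0.97, edgeR adjusted p = 0.0018). The call on Hoxd10 was lost without Rybp+/+ replicate 2 (edgeR adjusted p = 0.052). It rose with phase disruption from 17 and 29 to 64 and 55 counts (1.48 ± 0.32, edgeR adjusted p = 4e-04). Hoxd12 rose in the knockout from 6 and 7 to 13 and 31 counts (edgeR adjusted p = 0.046). The call on Hoxd12 was lost on leaving out any of the 4 libraries (edgeR adjusted p from 0.059 to 0.55) and with the replicate number as a block (edgeR adjusted p = 0.072). Hoxd13 rose in the knockout from 128 and 114 to 181 and 204 counts (0.72 ± 0.21, edgeR adjusted p = 0.005). The call on Hoxd13 was kept in every refit, though its log2 fold change is under 1. In the Wdr5 knockdown Hoxd13 fell from 105 and 75 to 58 and 58 counts (−0.67 ± 0.21, edgeR adjusted p = 0.0079). The call on Hoxd13 was lost without shEV replicate 1 (edgeR adjusted p = 0.12). In the Rybp knockdown it was at 5.23 and 3.83 CPM in shEV and 4.22 and 5.04 CPM in shRybp ESCs, which overlapped. Hoxd11 fell in the Wdr5 knockdown from 12 and 22 to 3 and 6 counts (−1.93 ± 0.59, edgeR adjusted p = 0.0065). The call on Hoxd11 was lost without shEV replicate 2 (edgeR adjusted p = 0.18) or shWdr5 replicate 1 (edgeR adjusted p = 0.1). Hoxd9 rose there from 6 and 2 to 14 and 13 counts (edgeR adjusted p = 0.019). The call on Hoxd9 was lost without shEV replicate 2 (edgeR adjusted p = 0.22), shWdr5 replicate 1 (edgeR adjusted p = 0.13) or shWdr5 replicate 2 (edgeR adjusted p = 0.1).

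Of the remaining posterior members, Hoxb13, a gene of the prostate and tail, rose in the Rybp knockdown from 13 and 15 to 55 and 52 counts, or 0.329 and 0.408 to 0.997 and 1.16 CPM (1.54 ± 0.48, edgeR adjusted p = 0.011). The call on Hoxb13 was lost without shRybp replicate 1 (edgeR adjusted p = 0.066) or replicate 2 (edgeR adjusted p = 0.13). Hoxc10, a gene of lumbar motor neurons, rose with the TF-AA mutation from 1 and 6 to 19 and 18 counts (2.44 ± 0.66, edgeR adjusted p = 0.0061). The call on Hoxc10 was lost without WT ESC replicate 1 (edgeR adjusted p = 0.1). It rose with phase disruption from 10 and 7 to 21 and 18 counts (edgeR adjusted p = 0.043). That call on Hoxc10 was lost on leaving out any of the 4 libraries (edgeR adjusted p from 0.11 to 0.29) and with the replicate number as a block (edgeR adjusted p = 0.053).

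Of the central members, Hoxa7, a trunk gene, rose in 3 comparisons. Its counts went from 14 and 15 to 55 and 68 in Rybp-/- ESCs (2.13 ± 0.49, edgeR adjusted p = 5e-04), from 23 and 23 to 59 and 52 in shWdr5 ESCs (1.23 ± 0.29, edgeR adjusted p = 0.00072) and from 14 and 12 to 49 and 38 with the TF-AA mutation (1.81 ± 0.40, edgeR adjusted p = 0.001). These 3 calls were kept under every alternative tried. In shRybp ESCs Hoxa7 was at 0.942 and 0.981 CPM against 1.14 and 1.14 CPM in shEV ESCs (−0.25 ± 0.38, edgeR adjusted p = 0.62). Hoxc4, a gene of the cervical region and of lymphocytes, went from 12 and 9 to 76 and 62 counts with the TF-AA mutation (2.78 ± 0.36, edgeR adjusted p = 2.4e-06), the smallest adjusted p of a member in that table, and from 27 and 17 to 61 and 58 with phase disruption (1.54 ± 0.32, edgeR adjusted p = 0.00024). In the Rybp knockdown it went from 20 and 27 to 66 and 61 counts (edgeR adjusted p = 0.041). The call on Hoxc4 was lost without shEV replicate 1 (edgeR adjusted p = 0.17), shRybp replicate 1 (edgeR adjusted p = 0.13) or shRybp replicate 2 (edgeR adjusted p = 0.23). Hoxa5 rose with phase disruption from 53 and 70 to 137 and 145 counts (1.30 ± 0.19, edgeR adjusted p = 2.2e-06), and Hoxc6, a thoracic gene, rose in the Wdr5 knockdown from 4 and 5 to 22 and 24 counts (2.28 ± 0.51, edgeR adjusted p = 5e-04).

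Anterior members gave 4 calls, all higher. Hoxb1, the hindbrain gene of rhombomere identity, rose with phase disruption from 8 and 9 to 39 and 21 counts (1.91 ± 0.47, edgeR adjusted p = 0.0017). The call on Hoxb1 was lost without phase disruption replicate 1 (edgeR adjusted p = 0.11). In the rTRS table it rose from 6 and 14 in NTC to 40 and 36 counts in libraries labelled DOX (1.95 ± 0.64, edgeR adjusted p = 0.025). That call on Hoxb1 was lost without NTC replicate 1 (edgeR adjusted p = 0.17), DOX replicate 1 (edgeR adjusted p = 0.11) or DOX replicate 2 (edgeR adjusted p = 0.065). Hoxd1, which acts in sensory neurons, rose with the TF-AA mutation from 2 and 0 to 10 and 13 counts (edgeR adjusted p = 0.0058). The call on Hoxd1 was lost without WT ESC replicate 2 (edgeR adjusted p = 0.086), and without TF-AA mutation replicate 2 the gene did not pass the filter and was not tested. Hoxa3, a gene of pharyngeal organs, rose in the Rybp knockdown from 19 and 19 to 58 and 60 counts, or 0.48 and 0.517 to 1.05 and 1.34 CPM (edgeR adjusted p = 0.022). The call on Hoxa3 was lost without shEV replicate 1 (edgeR adjusted p = 0.054), shRybp replicate 1 (edgeR adjusted p = 0.069) or shRybp replicate 2 (edgeR adjusted p = 0.21). The annotated Hoxa3 gene spans Hoxa4, Hoxa5 and Hoxa6, Hoxd3 spans Hoxd4, and Hoxb7 overlaps Hoxb8. Each of these overlaps is between genes of the same strand, so their reads may not be told apart under any strand setting. The strand setting of the counting is not given in the sources used here, so reads of antisense transcripts beside these genes may not be told apart either.

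With DESeq2, 10 of the 37 calls were lost, at adjusted p from 0.05 to 0.21: Hoxa11, Hoxa13 and Hoxd12 in the Rybp knockout, Hoxa3 and Hoxc4 in the Rybp knockdown, Hoxd9, Hoxd11 and Hoxd13 in the Wdr5 knockdown, Hoxd1 with the TF-AA mutation and Hoxc10 with phase disruption. Without a filter on low counts, 5 were lost, at edgeR adjusted p from 0.062 to 0.14, namely Hoxa11, Hoxa13 and Hoxd12 in the Rybp knockout and Hoxa9 and Hoxc10 with phase disruption. A set of 17 calls was kept in every refit, among them those on Hoxb9 in 4 comparisons, on Hoxa7 in 3 and on Hoxc13 in 3. Of these 17, 14 had an absolute log2 fold change above 1, and the others were Hoxc13 in the Rybp knockdown and the rTRS table and Hoxd13 in the Rybp knockout.

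RYBP induction moved no member past the threshold. All 8 members tested had an unadjusted p above 0.05, of which the smallest was 0.065, and DESeq2 also called 0. The log2 fold changes ranged from −1.77 for Hoxa7, at 24 and 14 against 9 and 1 counts, to 0.65 for Hoxc4, at 15 and 33 against 43 and 27 counts.

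The other 18 members were called in no comparison. Among them 8 (Hoxa6, Hoxb2, Hoxb5, Hoxb6, Hoxb8, Hoxc5, Hoxd3 and Hoxd4) never had enough counts to be tested, with a highest count of 17 in any library. In all, 17 members had a mean under 1 CPM in both groups of every comparison, with a highest count of 43. Of the members tested without a call, Hoxd8 was at 8 and 8 against 22 and 18 counts in the Rybp knockout (edgeR adjusted p = 0.12), Hoxc12 was at 23 and 15 against 6 and 6 counts in the rTRS table (edgeR adjusted p = 0.1), and Hoxb4 overlapped between groups in the 3 tables where it was tested. Hoxa2, Hoxa4, Hoxb3, Hoxb7, Hoxc8, Hoxc9 and Hoxc11 were tested in 1 table each.

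Markers of fibroblasts, which serve as feeder cells, moved with the condition in several tables. Of 12 such genes, 11 were higher of 12 tested in Rybp-/- ESCs, where their sum went from 88.9 and 88.5 to 182 and 189 CPM, and Col1a2, a collagen chain, went from 1578 and 1595 to 3056 and 3296 counts. With phase disruption 0 of 12 were higher and 5 lower, and the sum went from 598 and 590 to 461 and 492 CPM while the Hox sum was higher. In the Rybp knockdown 5 of 6 tested were higher (sum 31.8 and 33.3 to 56.2 and 57.4 CPM), in the Wdr5 knockdown 2 were higher and 3 lower of 6 (30.7 and 32.6 to 24.5 and 24.2 CPM), and with the TF-AA mutation 4 of 5 were higher (22.9 and 22.1 to 44.5 and 43.2 CPM). In the RYBP induction 0 of 4 were called, and among rTRS libraries 1 was higher and 2 lower of 5. Among the latter, 8 of 10 ESC markers were lower and all 4 trophectoderm markers tested were higher, with a sum from 149 and 134 to 942 and 867 CPM, and 3 of 7 mesoderm markers were higher. Trophectoderm markers also moved in tables where the Hox sum was higher. Of those tested, 4 of 5 were higher in the Rybp knockout (sum 58.2 and 61.5 to 75.8 and 80.7 CPM), 2 of 3 with the TF-AA mutation (48.5 and 46.1 to 61.2 and 60.4 CPM) and 3 of 4 with phase disruption (269 and 278 to 316 and 335 CPM), and 0 were lower. They were 3 higher and 1 lower of 5 in the Rybp knockdown (54 and 59.4 to 194 and 213 CPM), and 2 and 1 of 4 in the Wdr5 knockdown with sums that overlapped. Of the primitive endoderm markers, 2 of 6 were higher in the Rybp knockout (5.65 and 6.45 to 10.8 and 10.9 CPM), 4 of 6 in either knockdown with 1 lower (13.9 and 17.2 to 23.0 and 23.3 CPM for Rybp, 13.6 and 16.8 to 32.9 and 32.5 CPM for Wdr5), 1 of 4 with the TF-AA mutation (9.94 and 9.83 to 16.7 and 16.4 CPM) and 1 of 5 with phase disruption. Of 10 ESC markers, 2 were higher and 7 lower in the Wdr5 knockdown, 5 and 4 in the Rybp knockout and in the Rybp knockdown, 2 and 2 with the TF-AA mutation, and 1 and 4 with phase disruption. Neural markers were 2 higher and 1 lower of 5 in the Rybp knockout, 1 and 2 of 5 in the Rybp knockdown (sum 307 and 320 to 229 and 232 CPM) and 3 and 2 of 5 in the Wdr5 knockdown (289 and 302 to 176 and 187 CPM). They were 1 and 1 of 3 with the TF-AA mutation and with phase disruption, 0 and 1 of 3 with RYBP induction, and 1 and 2 of 3 in the rTRS table. In the tables of lines other than R7.15, the fibroblast marker Lum was at 0 in every library, and Dcn, Postn and Col3a1 were at or near 0 (at most 11 counts). Other markers of the same list carried the fibroblast sums of those tables. As given above, these sums rose in the Rybp knockdown and with the TF-AA mutation and fell in the Wdr5 knockdown. The part of other cell types in the Hox changes was not tested.

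Genes known to act with or upstream of Hox genes were called in both directions, as were all genes tested (either direction, 45.5% in the Rybp knockout, 52.7% in the Rybp knockdown, 63% in the Wdr5 knockdown, 30.5% with the TF-AA mutation, 33% with phase disruption, 6.02% with RYBP induction and 43.4% in the rTRS table). Of 9 TALE cofactors, homeodomain proteins that bind DNA with HOX proteins, 2 were higher and 2 lower in the Rybp knockout, 3 and 3 in the Rybp knockdown and 4 and 2 in the Wdr5 knockdown. The counts were 1 and 2 with the TF-AA mutation, 2 and 1 with phase disruption, 1 and 0 with RYBP induction, and 5 and 0 in the rTRS table. Of 14 CDX and retinoic acid genes, which include known inducers of Hox transcription, 5 were higher and 1 lower of 13 tested in the Rybp knockout, 7 and 4 of 14 in the Rybp knockdown, and 5 and 4 of 12 in the Wdr5 knockdown. The counts were 2 and 2 of 9 with the TF-AA mutation, 5 and 0 of 13 with phase disruption, 0 and 1 of 10 with RYBP induction, and 6 and 3 of 13 in the rTRS table. Cdx2, a caudal-type factor, went from 37 and 36 to 501 and 518 counts in the libraries labelled DOX (3.83 ± 0.20, edgeR adjusted p = 1.4e-08), while Hoxb1 was the single Hox rise in that table. Cyp26a1, which degrades retinoic acid, went from 17 and 33 to 123 and 114 counts with phase disruption (2.35 ± 0.26, edgeR adjusted p = 7.3e-09).

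Of the Hox-related homeobox genes, Evx1, which lies beside HoxA, rose with the TF-AA mutation from 34 and 25 to 159 and 125 counts (2.34 ± 0.25, edgeR adjusted p = 1e-07) and in the libraries labelled DOX from 7 and 2 to 304 and 302 counts (6.06 ± 0.39, edgeR adjusted p = 7.8e-08). Gbx2, a factor of the midbrain-hindbrain border, fell in the Wdr5 knockdown from 1787 and 1814 to 313 and 338 counts (−2.51 ± 0.077, edgeR adjusted p = 5.7e-18). Of this list 0 were higher and 1 lower of 5 tested in the Rybp knockout, 1 and 3 of 7 in the Rybp knockdown, and 1 and 3 of 5 in the Wdr5 knockdown. They were 1 and 0 of 4 with the TF-AA mutation, 0 and 0 of 3 with phase disruption, 0 and 1 of 6 with RYBP induction, and 1 and 3 of 5 in the rTRS table. Protein-coding genes that flank the clusters gave 7 rises and 9 falls of 19 in the Rybp knockout, 4 and 9 of 18 in the Rybp knockdown, and 4 and 7 of 17 in the Wdr5 knockdown. They gave 3 and 2 of 18 with the TF-AA mutation, 4 and 3 of 17 with phase disruption, 0 and 0 of 18 with RYBP induction, and 1 and 9 of 19 in the rTRS table. Their median log2 fold change was −0.0022, −0.096, −0.14, 0.072, 0.012, 0.071 and −0.23 in these tables in that order, beside 1.12, 0.51, 0.31, 2.13, 1.00, −0.17 and −0.31 for the Hox members tested. Of the 19 flanking genes found, 17 to 19 were tested in each table, whereas 8 to 21 of the 38 Hox members were. Of 19 noncoding transcripts of the clusters 8 were found in the tables, at most 1 was tested in any table and 0 were called.

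RING1B covered most of each cluster. All 38 members had a RING1B peak within 2500 bp of their annotated start in each of the 4 RING1B lists, against 52.4%, 39.7%, 43.6% and 39.4% of 22380 protein-coding genes in the DOX-, DOX+, shEV and shStat3 lists. In the DOX- list of Tet.Rybp.Stat3 ESCs, a single peak of 113.35 kb held the whole HoxA cluster, and the widest peaks over HoxB, HoxC and HoxD were 65.99, 74.9 and 62.42 kb. Over all clusters, 404.67 kb (80.1%) were covered in the DOX- (from 60.5% of HoxB to 100% of HoxA) and 398.15 kb in the DOX+ list, or 98.4% of the former, while the genome-wide length was 84.1%. In shStat3 ESCs 397.65 kb were covered against 380.44 kb in shEV ESCs, or 105%, while the genome-wide length was 94.3%. The fold enrichment at the members lay at a median percentile of 96.5 among all peaks of the DOX- list, 94.4 in DOX+, 94.9 in shEV and 92.9 in shStat3 ESCs. The fold itself had a median of 42.3 in DOX- (from 19.8 at Hoxc13 to 55.7 at Hoxd1) and 29.7 in DOX+, and its percentile was lower in DOX+ at 30 of 38 members and higher at 8. From shEV to shStat3 the median fold went from 36.8 to 32.6, and its percentile was lower at 33 members and higher at 5. Members under 1 broad peak share its fold and percentile, so these medians and counts reflect fewer peaks than members. In DOX- all HoxA members lay under 1 peak, and the 8 members with a higher percentile in DOX+ shared 1 peak of that list. From Hoxb2 to Hoxb9, members shared 1 peak in shEV and 1 in shStat3 ESCs. Each list came from merged replicates or 1 library, so differences between lists could not be tested.

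**Figure D4:**
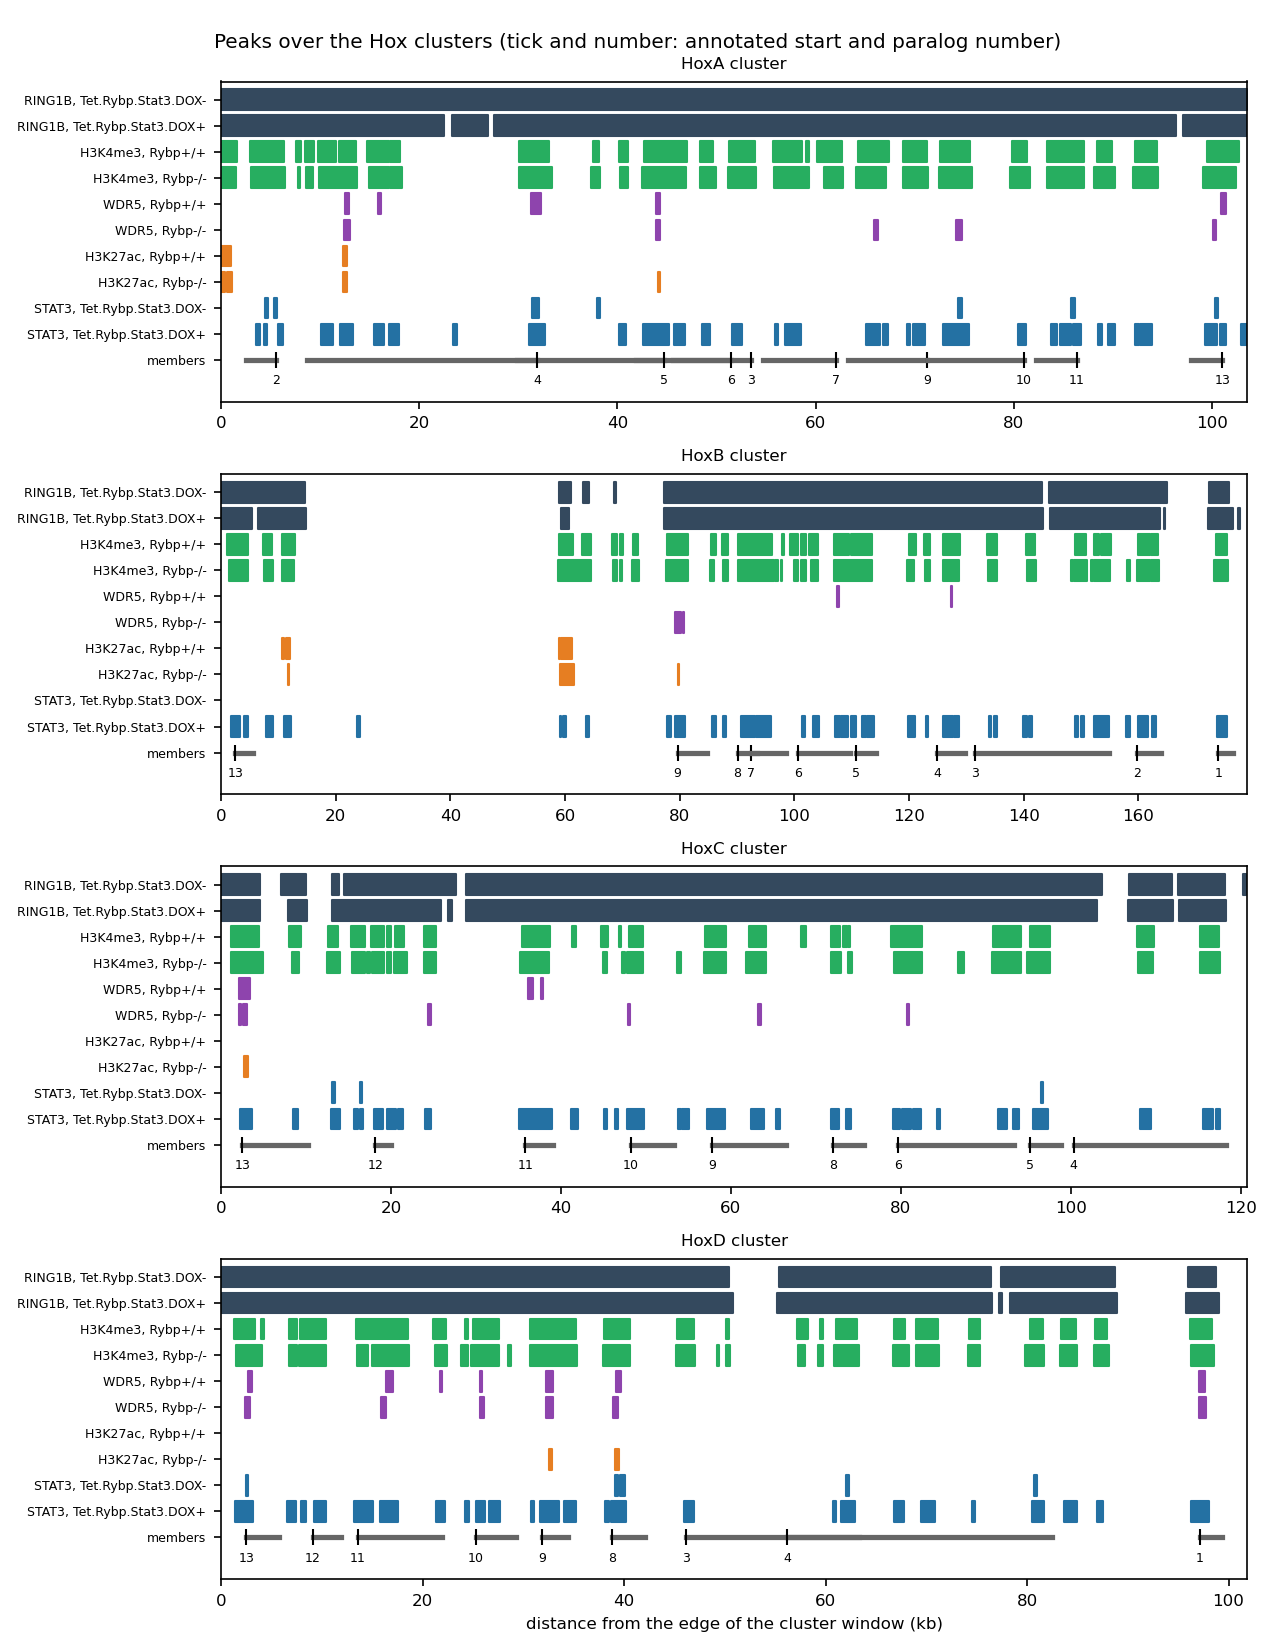
Peaks (bars) of RING1B, H3K4me3, WDR5, H3K27ac and STAT3 over each Hox cluster (4 panels), against the distance in kb from the edge of the cluster window (x axis), with the members below as grey bars with a tick and paralog number at the annotated start. RING1B fills most of each panel, H3K4me3 forms separate blocks, and H3K27ac is absent from HoxC and HoxD in Rybp+/+ ESCs.

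H3K4me3 was present at nearly every member. In both Rybp+/+ and Rybp-/- ESCs 37 of 38 members had an H3K4me3 peak (65.7% and 65.8% of all genes). The exception, Hoxc4, had a peak at another annotated start. Of the clusters, 183.29 kb lay under H3K4me3 before deletion and 194.11 kb after it, or 106%, while the genome-wide length was 96%. The increase was found in each cluster, from 104% in HoxA to 110% in HoxD. The fold enrichment at the members lay at a median percentile of 69.3 in Rybp+/+ and 66.9 in Rybp-/- ESCs. The fold itself was higher in Rybp-/- ESCs at 22 members and lower at 15, and its percentile was higher at 18 and lower at 19.

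A WDR5 peak was found at 11 members (28.9%) in Rybp+/+ and 12 (31.6%) in Rybp-/- ESCs, against 44.8% and 47.2% of all genes, a difference that was not tested. At 8 members it was found in both lists (Hoxa5, Hoxa13, Hoxc13, Hoxd1, Hoxd8, Hoxd9, Hoxd10 and Hoxd13), at Hoxa4, Hoxb4 and Hoxc11 in Rybp+/+ only and at Hoxb9, Hoxc6, Hoxc10 and Hoxd11 in Rybp-/- only. For Hoxa6, Hoxa7, Hoxa9 and Hoxc4 the RefSeq start lay 2684 to 15459 bp from the annotated start used, so a peak at the RefSeq start may not be counted. The fold enrichments ranged from 3.04 to 7.99 in Rybp+/+ (percentiles 4.77 to 79.3 of the list, median 27.8) and from 2.26 to 5.62 in Rybp-/- ESCs (0.147 to 58.2, median 14.6). The highest were those of Hoxa13 and Hoxc13. Of the clusters, WDR5 covered 8.62 kb before and 8.45 kb after deletion, or 98.1%, while the genome-wide length was 110%. In Rybp+/+ ESCs the median RNA level was 0.0286 RPKM over the 11 members with a WDR5 peak and 0.0157 RPKM over the other 27, with overlapping ranges.

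**Figure D5:**
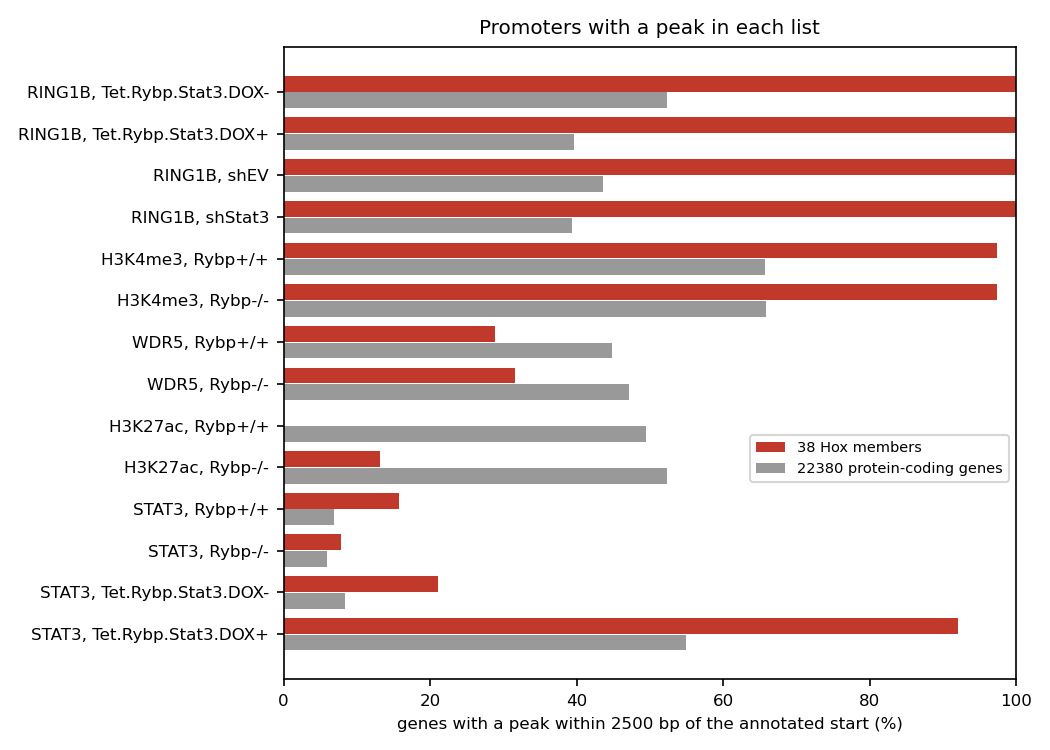
Share of genes (x axis, %) with a peak within 2500 bp of the annotated start in each of the 14 peak lists (y axis), for the 38 Hox members (red) and 22380 protein-coding genes (grey). The Hox share is 100% in all RING1B lists, 97.4% in both H3K4me3 lists and 0% for H3K27ac in Rybp+/+ ESCs.

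At the 1 annotated start used for each gene, H3K27ac was called at 0 members in Rybp+/+ and at 5 in Rybp-/- ESCs. With any annotated transcript start it was called at 1 and 6 members. The share was 0 of 38 against 49.5% of all genes in Rybp+/+, and 5 of 38 (13.2%) against 52.4% in Rybp-/- ESCs. The 5 were Hoxa5, Hoxb9, Hoxc13, Hoxd8 and Hoxd9. Their peaks were small, 263 to 547 bp wide, with fold enrichments from 2.98 to 3.65 and −log10 q from 2.91 to 5.28, at percentiles from 19.1 to 44.8 of all peaks in that list, and with a −log10 q of at least 5 the peak of Hoxa5 alone was left. Of these 5 members Hoxb9 was the single one called in the Rybp knockout RNA-seq, and Hoxc13 was below its controls without a call. Hoxa5 and Hoxd9 did not have enough counts to be tested in that table. Over all clusters the length under H3K27ac was 4.54 kb before deletion and 5.86 kb after it, or 129%, while the genome-wide length was 95.2%.

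The 5 H3K27ac peaks lay 138 to 826 bp downstream of the annotated start by their centre. Those of Hoxa5, Hoxc13 and Hoxd9 lay wholly in coding exon sequence, that of Hoxb9 held 185 coding bases of 263, and that of Hoxd8 held 362 untranslated bases of 365. They held 10.4 to 13.2 CG per 100 bases, at percentiles from 98.5 to 99.6 of the 62669 peaks of the list, whose median was 1.39. That list also holds peaks away from gene starts, and peaks at gene starts were not taken as a separate background. A stretch of the Hoxc13 peak, the widest of the 5, is shown on the gene's strand, 5′ to 3′, with CG in capitals, since the CG density sets these peaks apart from most of the list. It covers 300 bases of coding sequence at chr15:102751833-102752132 (plus strand) and holds 29 CG.
Hoxc13 peak: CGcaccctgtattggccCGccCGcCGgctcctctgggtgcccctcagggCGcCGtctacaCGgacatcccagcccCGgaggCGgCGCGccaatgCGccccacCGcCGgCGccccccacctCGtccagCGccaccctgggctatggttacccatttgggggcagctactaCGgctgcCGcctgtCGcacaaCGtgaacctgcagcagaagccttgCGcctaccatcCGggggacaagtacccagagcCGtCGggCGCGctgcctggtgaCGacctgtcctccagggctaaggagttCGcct

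STAT3 peaks over the clusters differed between lists more than those of the other marks. A STAT3 peak was found at 6 members in Rybp+/+ (15.8%, against 6.93% of all genes) and at 3 in Rybp-/- ESCs (7.89%, against 5.89%). Both lists came from 1 library each. The 6 were Hoxa4, Hoxa6, Hoxa11, Hoxb4, Hoxb5 and Hoxc13, of which Hoxb4 had the highest fold, 8.08. The 3 were Hoxb9, Hoxd8 and Hoxd13, with folds from 2.62 to 2.98, at percentiles from 1.1 to 6.42 of the Rybp-/- list. In Tet.Rybp.Stat3 ESCs, 8 members had a STAT3 peak in the DOX- list (21.1%, against 8.31% of all genes) and 35 in the DOX+ list (92.1%, against 54.9%). The covered length of the clusters went from 5.14 to 124.66 kb, while the genome-wide length went from 1.063 to 21.133 Mb. Over the same lists the length covered by RING1B in the clusters was 98.4%, with the lower folds given above. With a −log10 q of at least 5, 3 members kept a STAT3 peak in Rybp+/+ ESCs, none in Rybp-/- ESCs and 3 in the DOX- list.

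Hoxb9 was the single member with a WDR5, an H3K27ac and a STAT3 peak in the Rybp-/- lists and none of them in the Rybp+/+ lists. The folds were 2.96, 3.3 and 2.79, at percentiles 5.14, 31.8 and 2.71 of their lists, and the −log10 q were 2.85, 4.33 and 1.62, so none of these peaks was left at a −log10 q of at least 5. Its RNA was at 29 and 39 against 90 and 59 counts in the same comparison, a call that was lost without replicate 1 of either group. No test between the lists was possible.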

How the data were processed

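RNA-seq counts per gene were deposited as 7 tables of raw counts. Per the study's methods, the authors trimmed reads with Trim Galore, aligned them to mm9 with STAR and counted them with HTSeq-count, without stating the strand setting. Rows that name no gene (13.7% to 26.5% of the counts, absent from the RYBP induction table) were left out. In each table, genes passing filterByExpr were tested with edgeR 4.0.16 (quasi-likelihood, TMM, Benjamini-Hochberg over all genes tested, adjusted p under 0.05) in R 4.3.3. CPM took as total a library's counts on the genes tested, multiplied by its TMM factor. RPKM also used the gene length deposited beside the counts.

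Peak lists deposited by the authors gave the fold enrichment over control and the −log10 q of each peak. H3K4me3, WDR5 and H3K27ac peaks were called with MACS2 on merged replicates aligned with Bowtie2. The calling of RING1B and STAT3 peaks is not given in the sources used here. The depth behind the peaks is not given in the sources used here. A member had a peak where at least 1 bp lay within 2500 bp of its annotated start, and cluster windows ran 2500 bp past the outermost members.

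The members and gene lists were chosen with earlier results of these data known. All members with a call were named, with counts in every library, and of each other list up to 3 genes with the largest change. The alternatives were RLE size factors, DESeq2 1.42.0, no filter, a replicate block, leaving out each library, an absolute log2 fold change above 1, a 1000 bp window, a −log10 q of at least 5 and at least 500 bp covered. Halving the counts of the Rybp knockdown table and using any transcript start were added after seeing the data. The test was checked on simulated counts. Some sequences are not reported here.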

Additional observations from a re-analysis of the deposited data

Results flagged for a closer look

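Of the 13 members tested in both the Rybp knockout and the Rybp knockdown, 3 (23.1%) had both treated libraries on one side of their controls in the knockout and on the other side in the knockdown. Over all 15747 genes tested in both tables the share was 21.4%. Hoxa2, Hoxa11, Hoxc9 and Hoxd12 showed the same arrangement but were not tested in both tables. The log2 fold change in the knockdown minus that in the knockout was −2.38 for Hoxa7, which rose in Rybp-/- ESCs and lay below its controls without a call in shRybp ESCs. It was 1.21 for Hoxc13, which rose in shRybp ESCs and lay below its controls without a call in Rybp-/- ESCs. It was 1.90 for Hoxc6, which had no call in either. These differences were not tested, since the tables hold different ESC lines and were fitted separately.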

How the results depend on the processing

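Of the 37 calls on members, none changed direction. All 37 were kept with RLE size factors, 27 with DESeq2, 32 without a filter on low counts and 35 with the replicate number as a block, the 5 of the Rybp knockdown were kept with halved counts, and 104 of the 147 refits that left out 1 library and still tested the member kept the call. In all of these refits 17 calls were kept, of which 14 had an absolute log2 fold change above 1. The number of members called in the Rybp knockout, 8, was 5 with DESeq2, 5 without the filter and 4 to 6 on leaving out a library. In the Rybp knockdown, 5 became 3 with DESeq2 and 2 to 8 on leaving out a library (8 without shEV replicate 2). In the Wdr5 knockdown, 7 became 4 with DESeq2. In the rTRS table, 2 became 1 to 4 on leaving out a library (4 without NTC replicate 2) and 1 with an absolute log2 fold change above 1. The cause of these changes was not tested.

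With an absolute log2 fold change above 1, the calls over all genes were 1330 in the Rybp knockout, 2088 and 2815 in the Rybp and Wdr5 knockdowns, 1176 with the TF-AA mutation, 986 with phase disruption, 135 with RYBP induction and 1953 in the rTRS table. DESeq2 called 2980 genes with phase disruption, against 4814. On leaving out a library, calls over all genes were 2724 to 4767 with the TF-AA mutation and 406 to 1566 with RYBP induction.

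The groups share replicate numbers, but the deviations of libraries with the same number correlated at −6.25e-05 to 0.0441 over 2 pairs in 5 tables, at 0.141 with the TF-AA mutation and at 0.201 in the rTRS table. The labels tie no number to a shared culture or day, and pairing was not established. With the replicate block, members called were 7, 5, 7, 6, 8, 0 and 2 in the order Rybp knockout, Rybp knockdown, Wdr5 knockdown, TF-AA mutation, phase disruption, RYBP induction and rTRS, and calls over all genes were 7724, 9110, 9865, 5525, 5172, 1211 and 8559.

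With a −log10 q of at least 5, members with a WDR5 peak were 6 in Rybp+/+ and 6 in Rybp-/- ESCs (4.32 kb of the clusters in Rybp-/-), with an H3K27ac peak 1 in Rybp-/-, and with a STAT3 peak 3 in Rybp+/+ (1.85 kb), 0 in Rybp-/- (0.29 kb) and 3 in the DOX- list (2.82 kb). With at least 500 bp covered they were 6 and 5 for WDR5, 1 for H3K27ac in Rybp-/-, and 2 and 3 for STAT3 in Rybp+/+ and the DOX- list. Within 1000 bp, 3 members had a STAT3 peak in Rybp+/+ ESCs. With any annotated transcript start, 1 member had an H3K27ac peak in Rybp+/+ ESCs.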
